A study of Mus musculus with 3 samples.

Results

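The spots described here are the skeletal muscle spots of the tissue that was marked on 3 Visium sections of mouse skin wounds. A Visium spot is a small printed area of capture probes, so each spot is a region that can hold several cells or parts of cells, and its RNA is counted as unique molecular identifiers (UMIs). In each section the spots carrying the tissue mark and at least 500 UMIs were ranked by a muscle score, the share of a spot's UMIs that came from *Acta1*, *Ckm*, *Tnnt3*, *Tnnc2*, *Atp2a1*, *Mylpf*, *Myl1*, *Tnni2* and *Pvalb*, and the top 15% were chosen by that score. This gave 262 muscle spots out of 1748 marked spots with enough UMIs, 1910 marked spots and 14976 spots on the 3 slides. The Day 3 section gave 78 of 520 spots, the Day 7 section 81 of 539 and the Day 14 section 103 of 689. The remaining 1486 marked spots (442, 458 and 586) are called the other spots.

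Each section came from wounded skin of a C57BL/6J mouse sampled at 3, 7 or 14 days, and all 3 groups carried a wound. By the study's methods the mice were adult males with punch wounds through the whole skin of the back. The study's legends place intact skin and muscle beside the wound within these sections, and no separate unwounded sample was analysed here. They also speak of spots selected as a region of interest, but not of how its outline was drawn. Each day is 1 section, so no difference between days could be set against a spread between animals and no test was run. The intervals given are 95% intervals for counting error only. The spots of a section share 1 animal and 1 library and are not replicates.

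Under the dermis of the mouse back lies a thin sheet of striated muscle, the panniculus carnosus, with the muscles of the body wall below it. The type of a fibre is set by the myosin heavy chain it makes: *Myh4* marks the fastest fibres, *Myh1* and *Myh2* intermediate ones and *Myh7* slow ones, while *Myh3* and *Myh8* are made in embryonic, newborn and regenerating fibres. Contraction starts when a voltage sensor in the membrane opens the calcium release channel of the sarcoplasmic reticulum, which triadin, the product of *Trdn*, ties to the calcium store. The deposited data do not separate the panniculus from deeper muscle. Fast fibres draw mainly on glycolysis and the creatine buffer and slow fibres mainly on mitochondria.

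The score itself is a description and not a finding. It was between 13.3% and 21.4% of UMIs in the Day 3 muscle spots (median 15.7%), between 10.3% and 22.6% on Day 7 (median 13.5%), and between 14.1% and 27.2% on Day 14 (median 18.2%). In the other spots its median was 3.08%, 5.70% and 5.53%. The last spot inside and the first spot outside stood at 13.33% and 13.29% on Day 3, 10.32% and 10.29% on Day 7, and 14.09% and 14.07% on Day 14. No gap separated the chosen spots from those next in rank, and the lowest score in any other spot was 0.502%, 1.54% and 1.56%. Muscle transcripts were thus counted in spots of every kind. *Acta1*, the alpha-actin of skeletal muscle, was the most abundant score gene, at 3.88%, 3.03% and 3.66% of the UMIs of the muscle spots. All 9 genes were counted in every muscle spot but for *Atp2a1*, the fast calcium pump, in 1 spot of Day 3.

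**Figure D1:**
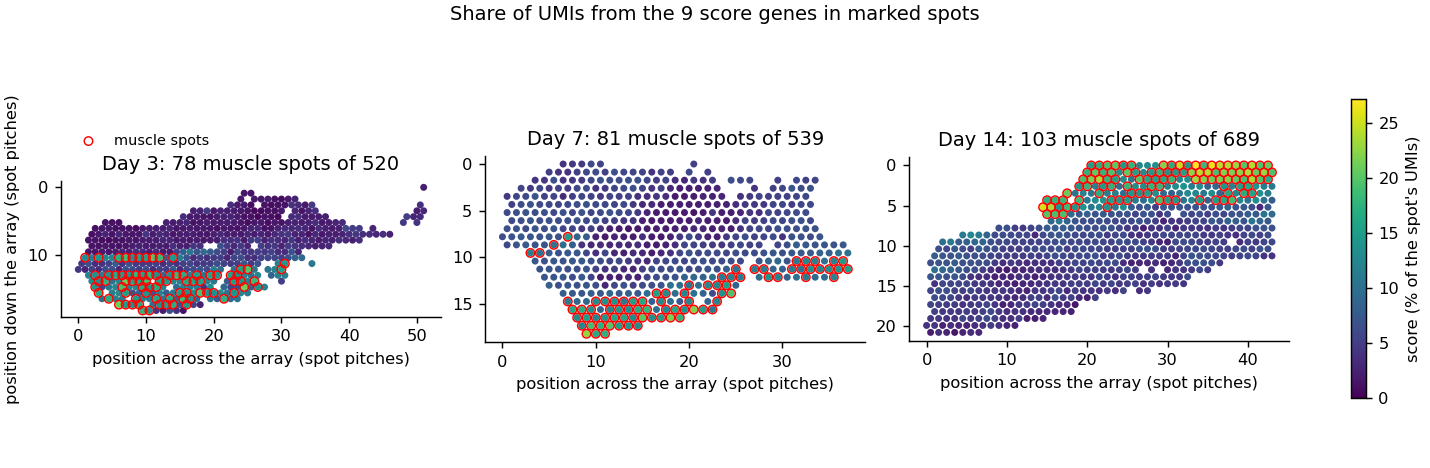
Positions of the marked spots with at least 500 UMIs on each array, in spot pitches (the distance between neighbouring spots), coloured by the muscle score in percent of UMIs. Red rings mark the 78, 81 and 103 muscle spots, which lie mostly along the lower side of the marked area on Day 7 and along its upper side on Day 14, and in several patches within its lower part on Day 3.

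The muscle spots formed patches of touching spots, a position the score did not use. On Day 14, 86 of the 103 spots (83.5%) made 1 patch, with 4 patches in all. On Day 7 the largest patch held 59 of 81 spots (72.8%), with 6 patches in all. On Day 3 the largest patch held 32 of 78 spots (41.0%) and there were 16 patches, 6 of them single spots. The map of the score shows most of the Day 7 and Day 14 spots along 1 side of the marked area. On Day 7, 40.7% of the muscle spots and 15.5% of the other spots touched an unmarked spot, and on Day 14 the shares were 28.2% and 13.3%. On Day 3 they were 16.7% and 19.5%, so the muscle spots of that section did not lie at the edge more often than the other spots.

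Depth differed between the 2 kinds of spot. The median muscle spot held 1503, 2284 and 2941 UMIs on Day 3, Day 7 and Day 14, and the median other spot 2114, 7964.5 and 5666.5. Levels are therefore given as CPM, the pooled UMIs of a gene per 1000000 UMIs of all genes but the 9 score genes. Fewer cells of a type and less RNA per cell cannot be told apart in such values. The muscle spots together held 103841, 169919 and 252152 UMIs outside the score genes.

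The muscle spots stood out from the other spots by genes of the contractile, calcium and energy machinery that the score had not used. A gene is called higher or lower past 2-fold when its whole interval lies beyond 2-fold. Genes needed 50 UMIs or more in the spots compared to be counted. On Day 3, 253 of 5628 genes were higher in the muscle spots (4.5%) and 313 were lower (5.56%). On Day 7, 199 of 9413 genes were higher (2.11%) and 46 were lower (0.489%). On Day 14, 311 of 10020 genes were higher (3.1%) and 537 were lower (5.36%). Of the genes past 2-fold, 44.7%, 81.2% and 36.7% were higher, and 79.4%, 97.4% and 87.8% with TMM, a scaling that centres the ratios on typical genes. Since the score chose the spots by genes of the same cells, these counts describe the choice and carry no test. The median gene was lower in the muscle spots, by a log2 ratio of -0.83, -0.46 and -0.85 and TMM scaling put the centre of the ratios at -0.58, -0.39 and -0.73, so a ratio near those values is no departure from the typical gene.

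Of 5513 genes counted in all 3 sections, 122 were higher past 2-fold in each. Among these counted genes, that is 48.6% of the 251 higher on Day 3, 70.9% of 172 on Day 7 and 50.4% of 242 on Day 14. Of all genes higher on each day it is 48.2%, 61.3% and 39.2%. Among the 122 were 14 of 19 genes of a sarcomere scaffold list, 10 of 13 of an excitation-contraction coupling list and 7 of 9 of a fast fibre list. So were 10 of 17 of a glycolysis and energy buffer list, 7 of 22 of an oxidative metabolism list and 11 of 12 of the mitochondrial genome list. A further 63 of the 122 were on no list. Only 15 genes were lower past 2-fold in all 3 sections, among them the matrix genes *Col1a1*, *Col1a2*, *Col3a1*, *Sparc* and *Postn* and the basal keratin *Krt5*.

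*Trdn* had the highest ratio of the 122 by its smallest interval bound. It stood at 934 CPM in the Day 3 muscle spots and 122 CPM in the other spots, 7.66-fold higher (5.94 to 9.82). On Day 7 it was at 1165 and 78.6 CPM, 14.8-fold higher (12.4 to 17.8). On Day 14 it was at 2094 and 121 CPM, 17.3-fold higher (15.3 to 19.6). *Trdn* was counted in 53 of 78, 58 of 81 and 97 of 103 muscle spots. After each spot was thinned to 500 UMIs it was found in 32.1%, 34.6% and 57.3% of the muscle spots and in 10.2%, 6.11% and 7.85% of the other spots.

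Next by the same order came *Tpm2*, the beta-tropomyosin that lies along the thin filament. It was at 7829, 7133 and 7749 CPM in the muscle spots of Day 3, Day 7 and Day 14, and 6.69-fold (6.15 to 7.27), 5.96-fold (5.60 to 6.35) and 5.57-fold (5.29 to 5.86) higher than in the other spots. *Cmya5*, a large protein of the costamere and Z-disc region, was 7.48-fold, 5.87-fold and 5.75-fold higher, and *Des*, the intermediate filament desmin, 6.35-fold, 5.70-fold and 5.17-fold. The ratio of each of the 3 scaffold genes was highest in the Day 3 section and lowest in the Day 14 section, and the intervals of *Tpm2* on those days did not overlap.

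*Myh4* was the most abundant myosin gene in every section and was counted in every muscle spot. Its level was 21360, 27807 and 31295 CPM, and its ratio to the other spots was 7.05 (6.70 to 7.41), 4.21 (4.08 to 4.34) and 5.31 (5.17 to 5.44). *Mybpc2*, the fast myosin binding protein C, was 8.08-fold higher on Day 3, 3.80-fold on Day 7 and 3.94-fold on Day 14. *Actn3*, the fast-fibre alpha-actinin of the Z-disc, was 6.41-fold, 3.23-fold and 5.16-fold higher.

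Other genes with high ratios belonged to the sarcomere and its turnover. *Ttn*, the giant elastic protein titin, was 6.29-fold, 4.20-fold and 5.62-fold higher, and *Tcap*, the titin cap, 4.24-fold, 5.17-fold and 4.52-fold. *Actn2*, the second Z-disc alpha-actinin, was 3.59-fold higher on Day 3 (2.60 to 4.87), 9.08-fold on Day 7 (7.36 to 11.1) and 2.51-fold on Day 14 (1.88 to 3.29). *Mybpc1*, the slow myosin binding protein C that fast fibres also make, was 4.18-fold, 7.89-fold and 5.59-fold higher. Both stood highest in the Day 7 section, where *Mybpc2* and *Actn3* stood lowest. *Nrap*, a nebulin-related anchor of actin filaments, was 3.58-fold, 6.76-fold and 6.63-fold higher, and *Nexn*, an actin-binding protein of the Z-disc, 5.90-fold, 4.80-fold and 8.63-fold. *Trim54*, the ubiquitin ligase MuRF3, was 9.09-fold higher on Day 3 (5.88 to 13.9) and 1.89-fold on Day 7 (1.12 to 3.02), the latter not past 2-fold.

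The promoters of 3 genes are shown, 2 of the genes that were higher in every section and *Actc1*, which differed between the days. Each runs from 250 bases before to 50 bases after the annotated start of the gene, 5′ to 3′ on the strand of the gene, from RefSeq on GRCm38.p6, the assembly that mm10 stands for. Capitals mark CAGCTG, a form of the E-box bound by the MyoD family, read on both strands, and the MEF2 consensus, also searched on both strands. The *Tpm2* promoter is at chr4:43523505-43523804 on the minus strand, the *Myh4* promoter at chr11:67237562-67237861 on the plus strand, and the *Actc1* promoter at chr2:114052826-114053125 on the minus strand.
Tpm2: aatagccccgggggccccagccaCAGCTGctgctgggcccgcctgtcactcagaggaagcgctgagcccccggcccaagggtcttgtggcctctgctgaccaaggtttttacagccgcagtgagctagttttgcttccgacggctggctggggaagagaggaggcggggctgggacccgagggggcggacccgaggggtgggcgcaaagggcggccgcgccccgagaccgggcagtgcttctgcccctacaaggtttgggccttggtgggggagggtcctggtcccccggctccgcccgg
Myh4: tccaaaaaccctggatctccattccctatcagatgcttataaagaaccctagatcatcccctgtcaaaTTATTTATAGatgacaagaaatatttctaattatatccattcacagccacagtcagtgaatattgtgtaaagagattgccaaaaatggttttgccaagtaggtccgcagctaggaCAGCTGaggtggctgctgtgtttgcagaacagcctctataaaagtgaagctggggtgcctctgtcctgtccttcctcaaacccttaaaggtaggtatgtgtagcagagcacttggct
Actc1: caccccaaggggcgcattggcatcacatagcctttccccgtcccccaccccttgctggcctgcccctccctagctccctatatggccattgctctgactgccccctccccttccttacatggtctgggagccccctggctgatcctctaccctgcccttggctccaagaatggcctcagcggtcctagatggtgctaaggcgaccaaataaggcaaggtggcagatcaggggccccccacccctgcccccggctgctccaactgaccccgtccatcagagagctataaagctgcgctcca

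The *Tpm2* window held 1 CAGCTG, the *Myh4* window 1 CAGCTG and 1 MEF2 match, and the *Actc1* window neither. *Myl2*, which also differed between the days and is not printed, had 2 windows, each with 1 CAGCTG and 0 MEF2 matches. Promoters were at hand for 80 of the 122 genes that were higher in all 3 sections. Of their 101 promoters, 33 (32.7%) held CAGCTG and 9 (8.91%) held the MEF2 consensus. Of all 32851 promoters of the same length, 16.3% and 3.19% did. Among the 5745 promoters of genes counted in all 3 sections the shares were 15.4% and 1.51%. A match is a description of the letters and not a bound site.

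**Figure D2:**
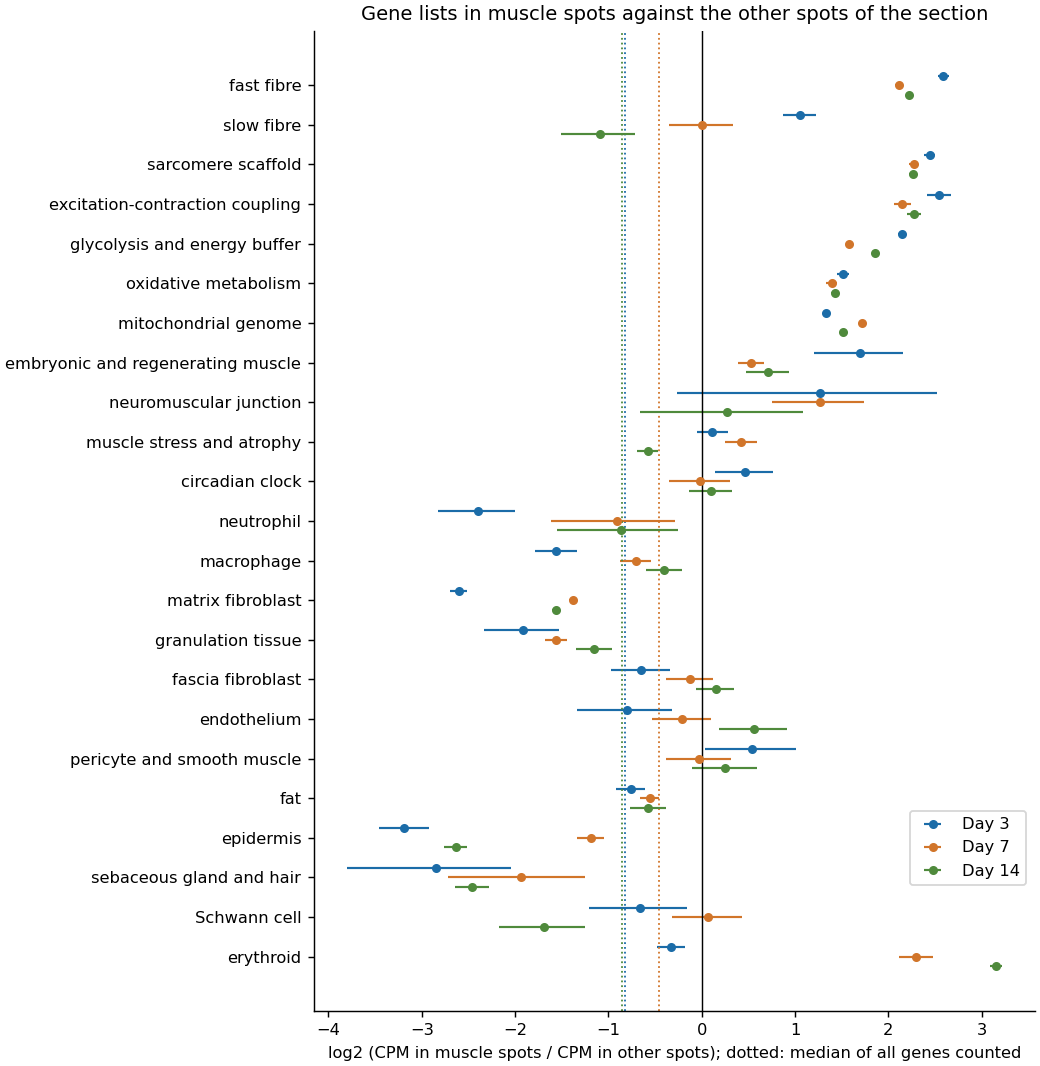
Log2 ratio of pooled CPM in the muscle spots over the other spots for each gene list but the lymphocyte list, with 95% counting intervals. Colours mark Day 3 (blue), Day 7 (orange) and Day 14 (green). The dotted lines mark the median of all genes counted on each day, at -0.83, -0.46 and -0.85, and the fast fibre list lies at 2.59, 2.11 and 2.22.

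Summed by list, the fast fibre, sarcomere scaffold and coupling genes stood 4.32-fold to 6.02-fold above the other spots. The slow fibre and stress lists did not. Since the score holds genes of fast fibres, the contrast of the fast and slow lists describes the choice of spots and is no separate result. The fast fibre list gave log2 ratios of 2.59 (2.54 to 2.64), 2.11 (2.08 to 2.15) and 2.22 (2.19 to 2.25), the sarcomere scaffold list 2.44, 2.27 and 2.26, and the excitation-contraction coupling list 2.54, 2.15 and 2.28. Of the coupling genes, 12 of 13 counted were higher past 2-fold in the Day 3 section, 11 of 14 in the Day 7 section and 13 of 15 in the Day 14 section. *Ryr1*, the calcium release channel, was 5.70-fold, 3.90-fold and 3.63-fold higher. *Srl*, the calcium-store protein sarcalumenin, was 9.62-fold higher on Day 3 (7.06 to 13.0), 4.38-fold on Day 7 and 3.22-fold on Day 14.

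The energy genes followed with smaller ratios. The glycolysis and energy buffer list was at 2.15, 1.58 and 1.86, with 13, 11 and 15 of its 17 counted genes higher past 2-fold. *Aldoa* was its most abundant gene, at 16073, 10905 and 15891 CPM in the muscle spots, and 4.97-fold, 2.79-fold and 3.48-fold higher than in the other spots. *Pgam2*, the muscle form of phosphoglycerate mutase, was 7.01-fold, 4.69-fold and 4.90-fold higher. The oxidative metabolism list was at 1.51, 1.39 and 1.43, with 8 of 22 genes higher past 2-fold on each day. Its muscle isoforms led: *Cox8b* was 6.12-fold, 4.40-fold and 6.22-fold higher and *Cox6a2* 4.70-fold, 4.71-fold and 4.42-fold. *Mb*, the oxygen store myoglobin, was at 1868, 1777 and 1578 CPM in the muscle spots, and 2.54-fold, 8.53-fold and 3.03-fold higher than in the other spots. *Ckmt2*, the creatine kinase of muscle mitochondria, was 4.33-fold, 6.22-fold and 3.25-fold higher, and *Ampd1*, the AMP deaminase of muscle, 5.78-fold, 5.12-fold and 7.43-fold. *Atp5b*, an ATP synthase subunit of every tissue, was 1.82-fold, 1.70-fold and 1.55-fold higher and was not past 2-fold on any day.

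Transcripts of the mitochondrial genome were also more abundant, with list ratios of 1.33, 1.71 and 1.51. They made up a median of 11.6%, 10.2% and 11.7% of all UMIs in a muscle spot and 6.08%, 3.92% and 4.90% in an other spot. *mt-Co1* was 2.94-fold, 3.84-fold and 3.82-fold higher. A high mitochondrial share is also read as a sign of RNA quality, and its part in the ratios was not tested.

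Genes of the epidermis, the hair and the connective tissue matrix were lower. Epidermal genes had list ratios of -3.19, -1.19 and -2.64, with 9, 1 and 10 of 10 genes lower past 2-fold, and the matrix fibroblast list -2.61, -1.38 and -1.56, with 6, 5 and 5 of 10. *Col1a1*, a chain of type I collagen, was 9.13-fold lower on Day 3 (8.13 to 10.3), 2.78-fold lower on Day 7 (2.66 to 2.90) and 3.72-fold lower on Day 14 (3.52 to 3.93). The granulation tissue list was at -1.92, -1.56 and -1.15. The sebaceous gland and hair list was at -2.85, -1.94 and -2.46. On Day 3, 4 of 9 neutrophil and 3 of 10 macrophage genes were lower past 2-fold, against 5.56% of all genes counted. The numbers were 0 of 7 and 0 of 9 on Day 7, and 0 of 5 and 0 of 9 on Day 14. Of all genes, 0.489% and 5.36% were lower on those days, so these few genes cannot be set apart from that share. The lymphocyte list was at -2.62 on Day 14 (-4.50 to -1.25), with 4 UMIs against 397 and 0 of its 4 counted genes past 2-fold. The neutrophil list was at -2.40, -0.91 and -0.87. The intervals of the Day 7 value (-1.61 to -0.29) and the Day 14 value (-1.55 to -0.26) hold the median gene of their day. The macrophage list was at -1.56, -0.70 and -0.40, of which the last lies above the median gene and turned positive with TMM (0.33) and DESeq2 size factors (0.36). Genes with the lowest ratios on Day 3 were *Saa3*, an acute-phase protein, with 2 UMIs in the muscle spots and 1607 in the other spots (52.7-fold, 14.6 to 436), and *Psapl1*, with 0 and 662 UMIs (at least 14.5-fold). On Day 14 they were *Flg*, the filaggrin of the cornified layer, with 0 and 871 UMIs (at least 17.9-fold), and the keratin genes *Krt10*, *Krt1* and *Krt5*, 8.29-fold, 7.90-fold and 7.26-fold lower. *Lgals3*, the galectin of macrophages and keratinocytes, was 5.38-fold lower on Day 7. *Col12a1*, a collagen of fascia and tendon, was 4.04-fold lower on Day 7 (3.01 to 5.57).

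Markers of other cell types were still counted in the muscle spots. The matrix fibroblast list held 10237, 33522 and 15376 CPM there, the epidermis list 1136, 2266 and 2237 CPM, and the fat list 3294, 4885 and 924 CPM. The lymphocyte list had 1, 3 and 4 UMIs, so T cell transcripts were near 0. Among the 10 fat genes *Fabp4*, a fatty acid carrier, was at 1165, 2095 and 488 CPM. The fat list was at a log2 ratio of -0.76, -0.56 and -0.57 to the other spots, of which the last turned positive with TMM (0.16) and DESeq2 size factors (0.19). Fascia fibroblast genes were at -0.65, -0.13 and 0.15, pericyte and smooth muscle genes at 0.54, -0.02 and 0.25, and Schwann cell genes at -0.66, 0.07 and -1.69. With DESeq2 size factors the Day 3 values of the fascia and Schwann lists were 0.03 and 0.02. Their part in the ratios was not tested.

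**Figure D3:**
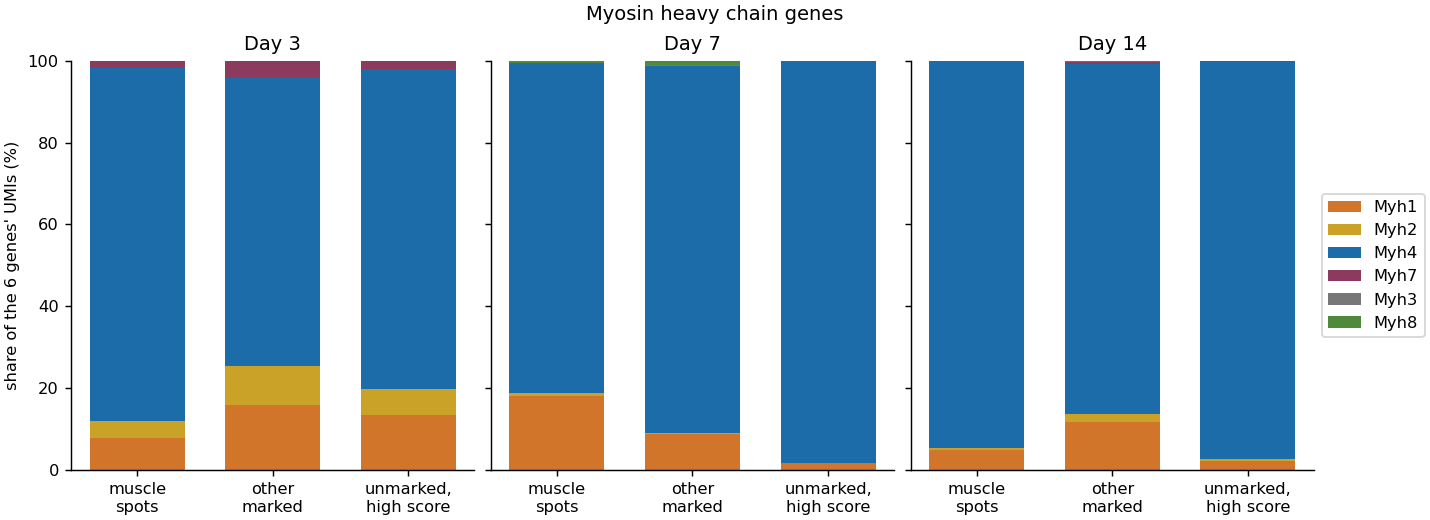
Shares of the UMIs of 6 myosin heavy chain genes, in percent, in the muscle spots, in the other marked spots and in unmarked spots with a score at or above that of the last muscle spot. *Myh4* takes 86.5%, 80.9% and 94.6% in the muscle spots of Day 3, Day 7 and Day 14, and *Myh1* takes 18.0% on Day 7.

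The myosin genes described the fibre types of the RNA in the chosen spots, and their shares differed between the sections. The score that chose the spots holds genes of fast fibres, such as *Atp2a1*, so the choice favours fast fibres. A high *Myh4* share and a low *Myh7* share therefore describe the chosen spots and not all muscle of a section. *Myh4* made up 86.5% of the 2565 myosin heavy chain UMIs of the Day 3 muscle spots (85.1 to 87.8), 80.9% of 5837 on Day 7 (79.9 to 81.9) and 94.6% of 8343 on Day 14 (94.1 to 95.1). *Myh1* made up 7.76%, 18.0% and 4.67%. *Myh2* made up 4.09%, 0.651% and 0.719%, and *Myh7* made up 1.68% on Day 3, with 43 UMIs, against 1 UMI on Day 7 and 0 on Day 14, where a floor of 3 counts allows a share of up to 0.0360%. *Myh8* had 22 UMIs on Day 7, none on Day 3 and 2 on Day 14, and *Myh3* had none on any day. After thinning to 500 UMIs, 43.6%, 81.5% and 34.0% of the muscle spots had a *Myh1* UMI and 33.3%, 3.70% and 8.74% a *Myh2* UMI. The *Myh1* RNA of Day 7 was thus spread over most muscle spots. The *Myh1* share of myosin UMIs took another course in the other spots, at 15.8%, 8.60% and 11.6%, and *Myh2* made up 9.60%, 0.420% and 1.96%. The intervals cover counting error only, and 1 section stands for each day.

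The myosin mix also differed between places in a section. On Day 7 *Myh1* was at 6185 CPM in the muscle spots and 632 CPM in the other spots, a ratio of 9.79 (9.10 to 10.5), while *Myh4* had a ratio of 4.21. *Myh1* was 15.3% of myosin UMIs in the patch of 59 spots and 18.5% in the patch of 14 spots. In 1083 unmarked spots of the same section with at least 500 UMIs and a score at or above that of the last muscle spot, *Myh1* was 1.54% and *Myh4* 98.4%. On Day 3 *Myh1* was 13.4% and *Myh2* 6.25% in 196 such unmarked spots. On Day 14 *Myh1* was 2.17% in 655 unmarked spots, 5.35% in the patch of 86 muscle spots and 0.702% in the patch of 13. The marked muscle of Day 7 was therefore the richest in *Myh1* of the 9 pools plotted, and the unmarked muscle of the same section the poorest.

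The slow fibre list, which holds *Myl2*, *Myl3*, *Tnnt1*, *Tpm3*, *Atp2a2* and others, was counted mainly on Day 3. It had 301 UMIs in the Day 3 muscle spots (2899 CPM), 74 on Day 7 (436 CPM) and 56 on Day 14 (222 CPM). *Myl2*, the regulatory light chain of slow and heart muscle, had 55, 0 and 2 UMIs. *Tnnt1*, slow troponin T, had 38, 6 and 1. Against the other spots of the section the list was at log2 ratios of 1.05, 0.00 and -1.09 in the order of the days. The Day 14 interval (-1.50 to -0.71) holds the median gene of that day, at -0.85.

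The slow transcripts were unevenly spread. On Day 3, 52 of the 78 spots (66.7%) had a UMI of the list, and 41.0% did after thinning to 500 UMIs, but 5 spots held 57.1% of the list's UMIs, and the spot with most held 50 of the 301, among them 12 UMIs of *Myh7* and 10 of *Myl2*. The median Day 3 spot was at 954 CPM and the highest at 32637 CPM. With the 5 richest muscle spots left out and the other spots kept whole, the Day 3 ratio was -0.07 (-0.33 to 0.19). Rich spots were left out on the muscle side only, which lowers the ratio, and the 5 richest other spots held 27.9% of the list's UMIs there. That interval still lies above the median gene of Day 3, at -0.83. Without the 5 richest muscle spots of each section the difference between the days was smaller but kept its sign. It was at -2.29 and -2.94 for Day 7 and Day 14 against Day 3, where all spots gave -2.73 and -3.71. In the other spots the list also stood lower on the later days, at -1.68 and -1.56.

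**Figure D4:**
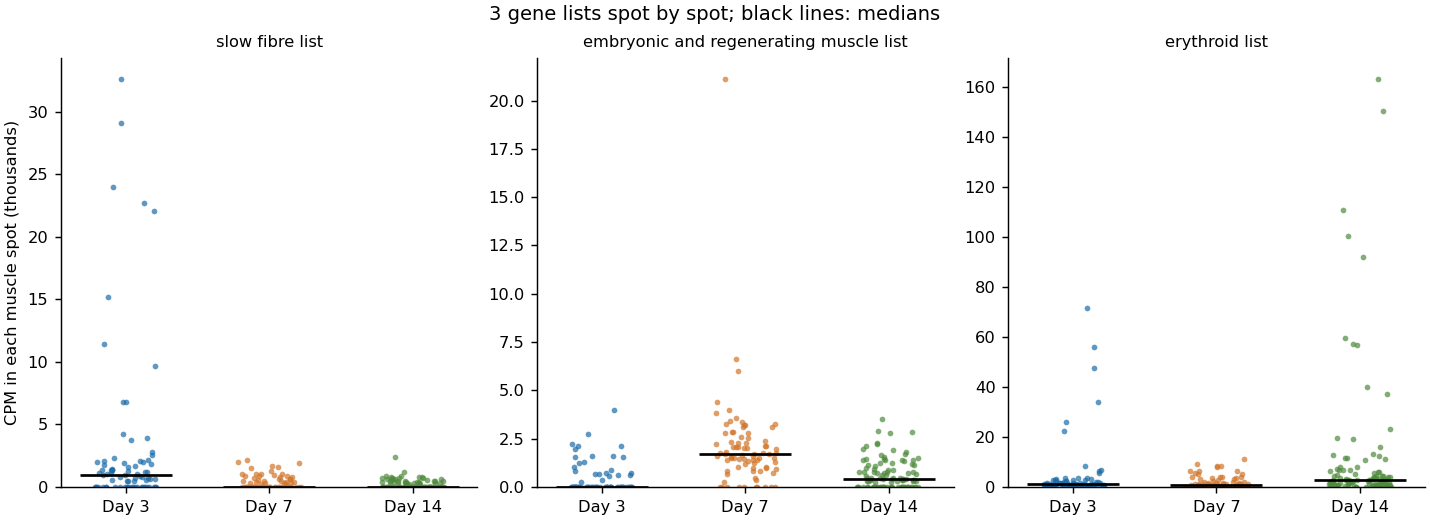
CPM of the slow fibre, embryonic and regenerating muscle, and erythroid lists in each muscle spot, in units of 1000 CPM, by day, with black lines at the medians. Single spots reach 32637 CPM for slow fibre genes on Day 3, 21141 CPM for embryonic genes on Day 7 and 163233 CPM for erythroid genes on Day 14, far above the medians of 954, 1681 and 2747 CPM.

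Between the days few genes were called past 2-fold in the muscle spots, where most genes had too few UMIs to be counted. A low count of calls is therefore no sign of likeness between the sections. Day 7 had 31 of 758 counted genes higher past 2-fold than Day 3 (4.09%) and 12 lower (1.58%). Day 14 had 10 of 915 higher than Day 3 (1.09%) and 9 lower (0.984%). Against Day 7 it had 10 of 1131 higher (0.884%) and 31 lower (2.74%). The median log2 ratio of the genes counted was -0.10, -0.09 and -0.02. The first and second of these comparisons share the Day 3 section, and the other pairs share a section likewise.

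Among genes of mature muscle, 3 lists differed by small ratios. Against Day 3, the excitation-contraction coupling list was at a log2 ratio of 0.04 on Day 7 and 0.23 on Day 14, the sarcomere scaffold list at -0.38 and -0.10, and the fast fibre list at 0.33 for both. No gene of the coupling list was past 2-fold in any pair of days, of 10, 12 and 12 counted, a number too small to set apart from the few percent over all genes. Of the 9 fast fibre genes, *Myh1* was higher past 2-fold and *Myh2* lower on Day 7 against Day 3, *Myh2* was lower on Day 14 against Day 3, and *Myh1* was lower on Day 14 against Day 7. Of the sarcomere genes, 1 of 19 was lower past 2-fold on Day 14 against Day 7, *Actn2*, the alpha-actinin of all fibres (3.16-fold, 2.32 to 4.36). *Trdn* was at 934, 1165 and 2094 CPM, 2.24-fold higher on Day 14 than on Day 3 (1.80 to 2.81). *Myh1* was 3.23-fold higher on Day 7 than on Day 3 (2.77 to 3.77) and lower again on Day 14, at 1547 CPM against 6185 CPM (3.56-fold to 4.50-fold). *Myh1* was at 682, 632 and 796 CPM in the other spots and did not follow that course there.

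The embryonic and regenerating muscle list was highest on Day 7. It had 46 UMIs (443 CPM) in the Day 3 muscle spots, 458 (2695 CPM) on Day 7 and 175 (694 CPM) on Day 14, a log2 ratio of 2.61 (2.17 to 3.08) on Day 7 against Day 3 and -1.96 (-2.22 to -1.70) on Day 14 against Day 7. Only *Actc1* and *H19* had enough UMIs to be counted between days. *Actc1*, the cardiac alpha-actin that skeletal fibres also make before birth and after injury, had 4, 183 and 87 UMIs, or 38.5, 1077 and 345 CPM. It was 28.0-fold higher on Day 7 than on Day 3 (10.7 to 104). *H19*, a noncoding RNA of fetal and regenerating muscle, was at 366, 1124 and 254 CPM, 3.07-fold higher on Day 7 than on Day 3 (2.16 to 4.47).

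These transcripts were not particular to the chosen spots. *Actc1* was at 10.1, 629 and 184 CPM in the other spots, and at 25.6, 3085 and 1078 CPM in the unmarked spots with a high score, so the same order of days held in all 3 kinds of spot. On Day 7 the list was at a log2 ratio of 0.53 to the other spots, but 1 muscle spot held 139 of its 458 UMIs, with 65 of *Actc1*, 29 of *H19* and 17 of the 22 *Myh8* UMIs. Without the 5 richest muscle spots, and with the other spots kept whole, that ratio was -0.07 (-0.26 to 0.11). Day 7 over Day 3, without the 5 richest muscle spots of each section, was 2.70 (2.12 to 3.34). After thinning to 500 UMIs, 12.8% of the Day 3 muscle spots, 50.6% of the Day 7 spots and 21.4% of the Day 14 spots had a UMI of the list, against 9.50%, 57.6% and 18.9% of the other spots.

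The list of neuromuscular junction genes had 6, 40 and 13 UMIs in the muscle spots, or 57.8, 235 and 51.6 CPM. On Day 7 12 of them were *Ache*, acetylcholinesterase, and 10 were *Chrna1*, a subunit of the acetylcholine receptor, which had 2 UMIs on Day 3 and 0 on Day 14. Day 7 stood 2.03 log2 units above Day 3 (0.78 to 3.56) and Day 14 was at a log2 ratio of -2.19 to Day 7 (-3.22 to -1.26). The other spots gave 2.03 (1.55 to 2.55) and -1.20 (-1.47 to -0.94) for the same pairs, so the order of days was not particular to the muscle spots. None of these genes reached the minimum of 50 UMIs between days.

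**Figure D5:**
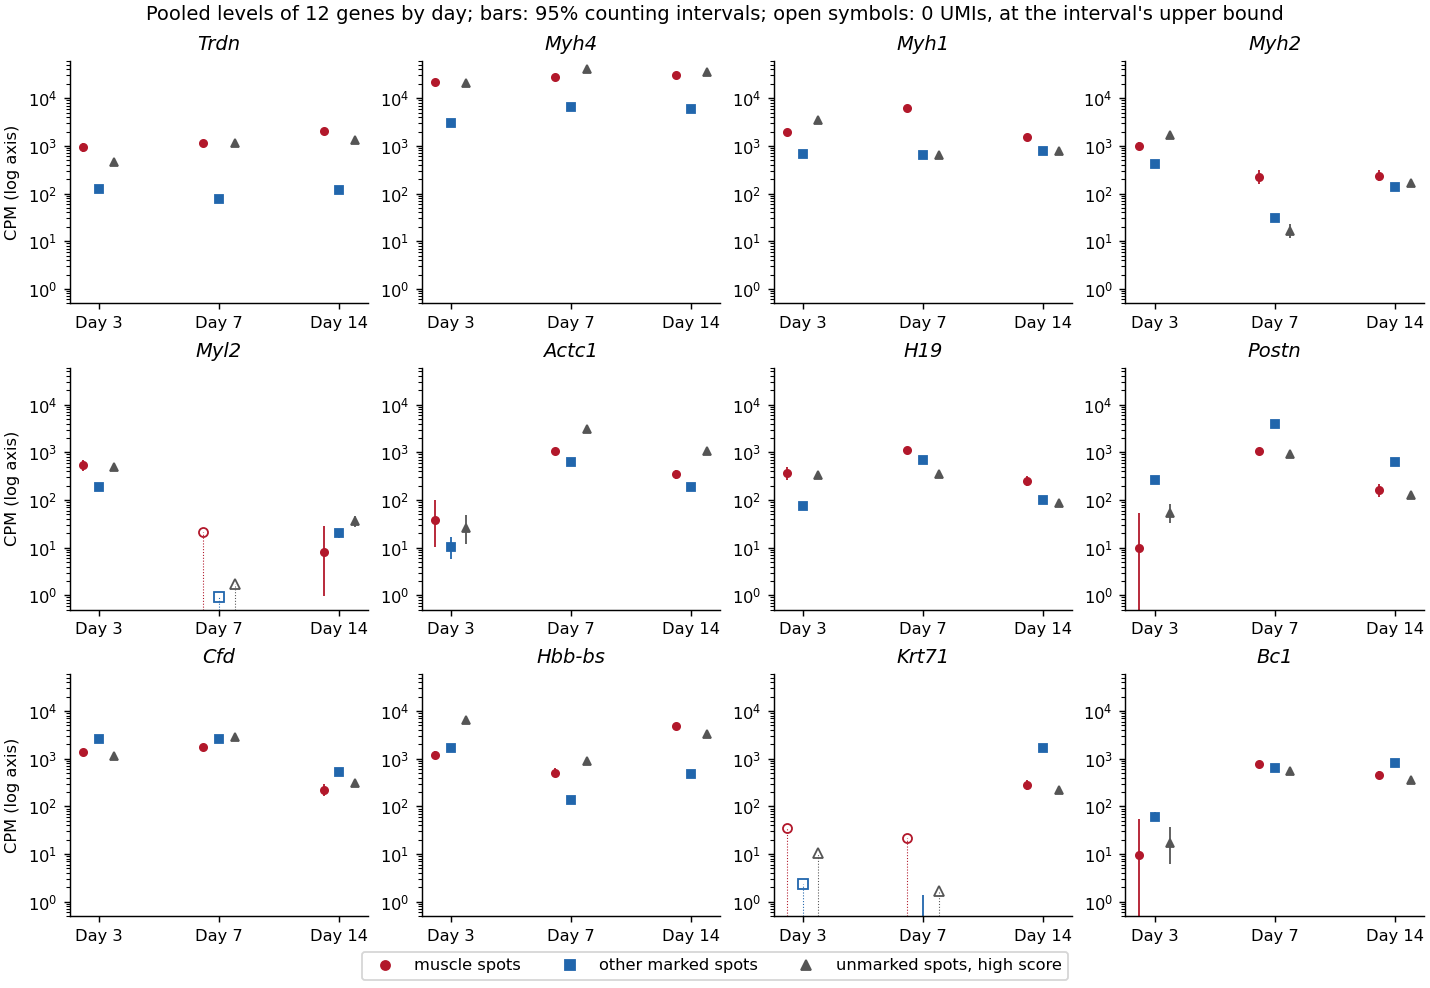
Pooled CPM on a log axis of 12 genes on Day 3, Day 7 and Day 14 in the muscle spots (red circles), the other marked spots (blue squares) and unmarked spots with a high score (grey triangles), with 95% counting intervals. *Actc1* goes from 38.5 to 1077 to 345 CPM in the muscle spots, *Postn* from 9.63 to 1059 to 163 CPM, and *Myl2* is at 0 UMIs on Day 7 in all 3 kinds of spot.

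Matrix genes of the wound were the other large group of Day 7. The muscle spots of Day 7 reached down to a score of 10.3%, against 13.3% on Day 3 and 14.1% on Day 14. With 1 score threshold for all sections, 32 Day 7 spots remained. Past 2-fold between Day 7 and Day 3 were then 14 genes, where the main choice gave 43. How much of the matrix ratios came with the lower threshold of Day 7 was not tested. In the muscle spots the granulation tissue list was at 520, 3390 and 912 CPM, a log2 ratio of 2.70 (2.30 to 3.13) on Day 7 against Day 3 and -1.89 (-2.12 to -1.67) on Day 14 against Day 7. The matrix fibroblast list was at 1.71 for Day 7 over Day 3, with 6 of its 9 counted genes higher past 2-fold, and at -1.12 on Day 14 against Day 7, with 4 of 9 lower. *Postn*, the matricellular protein periostin, had 1, 180 and 41 UMIs, or 9.63, 1059 and 163 CPM. *Tnc*, tenascin C, had 2, 98 and 7 UMIs, 29.9-fold higher on Day 7 than on Day 3 (8.07 to 251) and 20.8-fold lower on Day 14 than on Day 7 (9.71 to 53.0). *Col1a1* was at 2754, 11906 and 5219 CPM. Other collagens behaved likewise: *Col5a1*, a chain of fibril-starting type V collagen, was 5.98-fold higher on Day 7 than on Day 3 (3.89 to 9.63), and *Col6a3*, a chain of type VI collagen, was 5.18-fold lower on Day 14 than on Day 7 (3.63 to 7.52). After thinning, *Postn* was found in 0 of 78 muscle spots on Day 3 (a floor of 3 spots allows up to 3.85%), and in 33.3% and 6.80% of them on the later days.

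The other spots are richer in these genes and moved the same way at some of them. *Postn* stood at 266, 4009 and 611 CPM there and *Tnc* at 159, 1262 and 177 CPM. The granulation tissue list was at 2.34 for Day 7 over Day 3 in the other spots and the matrix fibroblast list at 0.49. *Col1a2*, the second chain of type I collagen, was 2.43-fold higher on Day 7 than on Day 3 in the muscle spots (2.14 to 2.76), but at 20678 and 20696 CPM in the other spots. For Day 14 over Day 3 the matrix fibroblast list was at 0.59 in the muscle spots and -0.46 in the other spots. How much of the matrix RNA in the muscle spots was made there and how much came from neighbouring tissue was not tested.

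Genes that were lower on Day 7 than on Day 3 included *Myl2*, with 0 against 55 UMIs (at least 30.0-fold), *Myh2*, 4.52-fold (3.09 to 6.74), *Car3*, a carbonic anhydrase of slow fibres and fat, 2.84-fold (2.49 to 3.24), *Ybx3*, a cold-shock domain protein, 2.76-fold (2.15 to 3.55), and *Dbp*, a clock output gene, 3.75-fold (2.07 to 7.08). *Car3* was at 2070 and 655 CPM in the other spots of Day 3 and Day 7 and *Dbp* at 151 and 99.8 CPM. The circadian clock list as a whole had 94, 83 and 167 UMIs in the muscle spots and was at 0.46, -0.02 and 0.10 to the other spots, and the hour at which each animal was sampled is not given in the sources used here. Day 14 against Day 3 had lower *Myl3* (5.67-fold, 3.19 to 10.5), *Atp2a2*, the slow calcium pump (4.37-fold, 2.46 to 7.97), and *Glul*, glutamine synthetase (3.25-fold, 2.25 to 4.73). The mitochondrial genes *Timm8b*, an import chaperone (3.70-fold, 2.11 to 6.73), and *Atp5g1*, a subunit of the ATP synthase ring (2.67-fold, 2.07 to 3.46), were lower on Day 7 than on Day 3, while the oxidative list as a whole was at -0.25. *Gapdh*, the glycolytic enzyme often used as a reference, was at 9476, 4673 and 10105 CPM and was past 2-fold in no pair of days.

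Fat genes were highest on Day 7 and lowest on Day 14. The fat list was at 3294, 4885 and 924 CPM, a log2 ratio of 0.57 on Day 7 against Day 3 and -2.40 (-2.62 to -2.19) on Day 14 against Day 7. *Cfd*, adipsin, was at 1377, 1748 and 222 CPM, 7.87-fold lower on Day 14 than on Day 7 (5.90 to 10.7). *Fasn*, fatty acid synthase, was 8.74-fold lower (5.27 to 15.3) and *Fabp4* 4.30-fold lower (3.49 to 5.32). In the other spots the fat list was at 0.36 and -2.39 for the same pairs.

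Haemoglobin genes were more abundant in the muscle spots than in the other spots on Day 7 and Day 14. *Hbb-bs* was at 1204, 506 and 4822 CPM in the muscle spots of Day 3, Day 7 and Day 14 and at 1701, 137 and 482 CPM in the other spots. *Hba-a1* was 12.9-fold higher in the muscle spots than in the other spots on Day 14 (11.8 to 14.1), 5.40-fold on Day 7 (3.94 to 7.29) and 1.19-fold on Day 3 (0.983 to 1.44). The erythroid list gave log2 ratios of -0.33, 2.30 and 3.15, and the Day 3 value turned positive with TMM (0.26) and DESeq2 size factors (0.35). Haemoglobin genes are near-identical copies in pairs, so the split between *Hba-a1* and *Hba-a2* is uncertain and the sum is firmer.

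Most muscle spots held haemoglobin UMIs, unevenly. On Day 14, 98 of 103 spots had one and the median spot was at 2747 CPM, but 5 spots held 53.2% of the UMIs and the richest held 713 of 3178. On Day 7, 55 of 81 spots had one and the 5 richest held 28.2%. After thinning, 39.7%, 33.3% and 69.9% of the muscle spots had an erythroid UMI, against 72.6%, 18.3% and 50.9% of the other spots. With the 5 richest muscle spots of each section left out and the other spots kept whole, the ratios were -1.56, 1.95 and 2.14. The 5 richest other spots, which stayed in, held 31.3%, 7.32% and 9.82% of the erythroid UMIs there. Leaving out rich spots on the muscle side only lowers these ratios. Day 14 over Day 3 was 1.80 in the muscle spots, -1.68 in the other spots and -0.69 in the unmarked spots with a high score. The order of Day 14 and Day 3 therefore did not hold outside the chosen spots. The endothelium list was at -0.80, -0.21 and 0.56 against the other spots, with 35, 88 and 70 UMIs. On Day 14 it was at 0.15 (-0.29 to 0.57) without its 5 richest muscle spots and with the other spots kept whole. The part of blood or vessels in these values was not tested.

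Inner root sheath keratins were counted in the muscle spots of Day 14 and not before. *Krt71* and *Krt25*, which growing hair follicles make, had 71 and 72 UMIs in the Day 14 muscle spots and 0 on Day 3 and Day 7, at least 9.75-fold and 9.88-fold higher than on Day 3. In the other spots of Day 14 *Krt71* had 6800 UMIs and was 5.91-fold higher in CPM. *Bc1*, a small noncoding RNA known from neurons, had 1, 130 and 116 UMIs, or 9.63, 765 and 460 CPM, and was at 61.3, 648 and 796 CPM in the other spots. The other spots of the same section thus held both transcripts as well.

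The muscle stress and atrophy list showed a mixed picture. *Trim63*, the muscle-specific ubiquitin ligase MuRF1, was at 154, 230 and 428 CPM in the muscle spots and 8.17-fold higher than in the other spots on Day 14 (6.42 to 10.3). *Cryab*, a small heat shock protein of muscle, was 2.55-fold, 2.87-fold and 1.77-fold higher. The metallothionein gene *Mt2* was lower, 5.13-fold on Day 3, 2.09-fold on Day 7 and 4.11-fold on Day 14, of which the Day 7 value was not past 2-fold. The list as a whole was at a log2 ratio of 0.11, 0.42 and -0.58, and the Day 14 value turned positive with TMM (0.15) and DESeq2 size factors (0.19). Between days *Mt2* was 4.72-fold higher on Day 14 than on Day 7 (2.49 to 9.84), and *Ankrd23*, a stretch-responsive ankyrin repeat protein of the sarcomere, 3.15-fold (2.33 to 4.33). In the other spots *Mt2* was at 135 CPM on Day 7 and 1256 CPM on Day 14.

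Neutrophil transcripts in the muscle spots were few and fewer still on the later days. The neutrophil list had 51, 21 and 22 UMIs, a log2 ratio of -1.99 on Day 7 against Day 3 and -2.49 on Day 14 against Day 3, with *S100a9* at 20, 0 and 3 UMIs. The macrophage list was at 1647, 1801 and 912 CPM, with a log2 ratio of 0.13 (-0.15 to 0.41) on Day 7 against Day 3 and -0.98 (-1.23 to -0.73) on Day 14 against Day 7. In the other spots the neutrophil list stood at -3.48 and -4.03 for the pairs with Day 3. After thinning, 15.4%, 6.17% and 0.971% of the muscle spots had a neutrophil UMI, against 61.1%, 12.2% and 7.85% of the other spots. *Ifi27l2a*, an interferon-induced gene, was at 433, 388 and 103 CPM and was 4.20-fold lower on Day 14 than on Day 3 (2.54 to 7.10).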

How the data were processed

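Visium sections of wounded mouse skin were analysed, 1 section per day. The authors made UMI counts per spot and gene with Space Ranger 1.3.0 on mm10 (both from the submitters' processing notes), and these raw counts, as deposited, cover 4992 spots per slide and 32285 features. All 4992 barcodes recur on every slide, as the array design fixes them. Where symbols were shared by several features (38 symbols), the feature with most UMIs kept the symbol.

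The position list's tissue mark and a minimum of 500 UMIs defined the spots, and the 9 score genes were then left out of every comparison. UMIs were summed over spots and scaled to CPM, and ratios carry 95% intervals from the exact conditional binomial distribution (shares: exact Clopper-Pearson). These intervals, and floors of 3 counts where a count was 0, cover counting error only. With 1 section per day there is no test. Spots were thinned to 500 UMIs (seed 1) for shares of spots, which left out none. The intervals were tested on simulated pools that held counting error alone, which is the error they assume. That simulation had no unevenness between spots, so it cannot show how the intervals behave where a few spots hold most UMIs.

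The genes named were the 10 highest and 5 lowest per section and 8 each way per pair of days by the interval bound nearer no change, up to 5 per list and 6 myosin genes; predicted genes and ribosomal and mitochondrial genes were passed over unless on a list. The muscle spots and the 24 gene lists were chosen with earlier results of these data known. Unmarked spots with a high score were compared as an addition. Python 3.11.15, numpy 2.4.6 and scipy 1.17.1 were used, and edgeR 4.0.16 (TMM) and DESeq2 1.42.0 (size factors) in R 4.3.3 served for scaling alternatives only.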

Additional observations from a re-analysis of the deposited data

Results flagged for a closer look

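Several gene lists stood above the other spots in one section and below them in another, with intervals that did not cross no change, and the difference between the sections was not tested. The slow fibre list was at a log2 ratio of 1.05 on Day 3 and -1.09 on Day 14. The muscle stress and atrophy list was at 0.42 on Day 7 and -0.58 on Day 14. The endothelium list was at -0.80 on Day 3 and 0.56 on Day 14. The erythroid list was at -0.33, 2.30 and 3.15 in the order of the days. Set against the median gene, at -0.83, -0.46 and -0.85, the negative endothelium, stress and erythroid values lie at or above it and are no departure below the typical gene. The Day 3 slow fibre ratio was -0.07 without its 5 richest muscle spots and with the other spots kept whole. That value lies above the median gene. The Day 14 interval of that list (-1.50 to -0.71) holds the median gene of that day.

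Spots outside the tissue mark also carried muscle transcripts. With at least 500 UMIs and a score at or above that of the last muscle spot, there were 196, 1083 and 655 unmarked spots in the Day 3, Day 7 and Day 14 sections. The muscle spots described here are therefore only part of the muscle captured on these slides.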

How the results depend on the processing

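No paired analysis was possible because each day is 1 section. Of the list ratios against the other spots recomputed under the alternatives, 388 stayed within the counting interval of the main value. A further 385 moved outside it and 15 changed sign, and between days the counts were 655, 190 and 11. Of the myosin shares recomputed with other choices of spots, 34 stayed within their interval and 38 moved outside it. For the shares of muscle spots with a UMI, recomputed with other thinning or none, 48 stayed and 78 moved. The following list ratios changed sign. On Day 3 the erythroid ratio was 0.057 without muscle and mitochondrial genes in the total, 0.26 with TMM, 0.35 with DESeq2 size factors and 0.79 with the top 20% of spots, and the DESeq2 values of the fascia and Schwann lists were 0.027 and 0.018. On Day 14 the stress, macrophage and fat ratios were 0.15, 0.33 and 0.16 with TMM and 0.19, 0.36 and 0.19 with DESeq2. The oxidative list was at -0.032 for Day 14 over Day 7 with the top 10% of spots. Relative to the sarcomere list it was at 0.13 on Day 7 against Day 3 and -0.18 on Day 14 against Day 7, where the coupling list was at -0.089. In the unmarked spots with a high score, Day 7 over Day 3 was 0.13 for the glycolysis list and 0.11 for the clock list, Day 14 over Day 3 was 0.090 for the clock list and -0.69 for the erythroid list, and Day 14 over Day 7 was 0.99 for the slow, -0.023 for the coupling and -0.020 for the clock list. Without the 5 richest muscle spots, and with the other spots kept whole, the Day 3 slow, Day 7 embryonic and Day 3 pericyte ratios were -0.066, -0.072 and -0.095. These last 2 settings were chosen after seeing the data.

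A mean of each spot's own CPM has no counting interval, so genes were called by the fold alone, and the counts past 2-fold were 3070, 3599 and 5239 genes against the other spots and 153, 118 and 162 between days (Day 7 to Day 3, Day 14 to Day 3, Day 14 to Day 7), where pooled counts gave 566, 245 and 848, and 43, 19 and 41. For the pairs of days in that order, the top 20% of spots gave 77, 36 and 64, a minimum of 20 UMIs 72, 53 and 80, no minimum 95, 102 and 112, and the unmarked spots 202, 116 and 231. The top 10% gave 24 for the first pair and 27 for the last, and 1 score threshold for all sections gave 14 and 21. The share of called genes that were higher went from 44.7%, 81.2% and 36.7% to 79.4%, 97.4% and 87.8% with TMM, to 31.2%, 63.5% and 21.8% with all UMIs as the total, and to 17.7%, 16.8% and 12.1% with the mean of each spot's own CPM, which turned the Day 7 majority. The causes of the other changes were not tested.

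Each day rests on 1 section, so day and animal cannot be told apart.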
